A study of Mus musculus with 87 samples.

Results

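A set of 10 immediate-early genes that do not belong to the AP-1 family were followed through liver regeneration: Egr1, Ier2, Ier3, Btg2, Zfp36, Dusp1, Klf2, Klf4, Klf6 and Klf10. They were chosen by gene symbol, each symbol matched 1 protein-coding row, and so the set held 10 of the 37991 genes of the table. All 10 passed the filter on low values (log2 RPKM above -1.5 in at least 1 library), as did 15396 genes in all.

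Transcripts were measured by RNA-Seq of polyA RNA from individual livers of male C57BL/6 mice aged 12 to 14 weeks, which had been entrained to a light and dark cycle with food in the dark phase only. Surgery took place at Zeitgeber time (ZT) 2, that is 2 h after lights on. The unoperated groups were C0 (ZT2, 9 livers), C4 (ZT6, 3 livers) and C4W (4 weeks, 2 livers). Sham surgery, which included every step but the resection, gave S1 (6 livers), S4 (5), S10 (3), S20 (3) and S48 (3), where the number is the hours after surgery. Partial hepatectomy (PH), the removal of most of the liver, gave X1 (6 livers), X4 (3), X10 (6), X20 (6), X28 (3), X36 (6), X44 (3), X48 (5), X72 (3), X1W (1 week, 3) and X4W (4 weeks, 2). In all 80 libraries of 19 groups were analysed, and 7 of the 87 labelled samples, 3 of X4, 3 of X60 (a post-PH group between X48 and X72) and 1 of X4W, were not analysed here. The study's own layout places the operations in separate time periods: C4 livers came from a period without any sham or PH livers, S10, S20, C4W and X4W from 1 period and X28, X44, S48, X48, X72 and X1W from another, while S1, S4, X1, X4, X10, X20 and X36 were split between these latter periods and C0 came from all of them. In S4, X4 and X28 against C4 the period and the operation therefore cannot be told apart. The groups also differed in their mix of periods in all comparisons with C0, and in X10 against S10, X20 against S20 and X44 against X20. The periods of the 3 X4 livers analysed are not known, nor is the mix in X4 against S4, X4 against X1 and X28 against X4. The part of the period in these differences was not tested. No label ties a single liver to a period, so values within periods were not computed. No hour of the day was available for C4W, X1W and X4W, and X1W was set against C0 as if both were at ZT2. The libraries held an estimated 12.2 to 48.9 M reads on genes, with a median of 26.8 M. One library, X28 replicate 2, stood apart: 22269 genes had a read in it, against at most 18598 in any other library, and results that rest on X28 are given without it where it changes a call or moves a value. Levels are in RPKM, read counts normalised to transcript length and to library size. Differences between groups are on the log2(RPKM + 0.25) scale with their standard error (SE), and a gene was called when the adjusted p was below 0.05 and the difference was over 0.5 in either direction. In whole liver RNA, fewer cells of a type and less RNA per cell cannot be told apart.

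Immediate-early genes are transcribed within minutes of a stimulus from factors already present in the cell, without new protein synthesis, and their transcripts are mostly short-lived. Signalling through ERK and other MAP kinases reaches them through the serum response factor and its ELK partners, through CREB at cAMP response elements (CRE), and through related factors. Several of the proteins they encode restrain the signal that induced them. Dusp1 is a phosphatase that inactivates MAP kinases, Zfp36 (tristetraprolin) promotes the decay of AU-rich mRNAs, and Btg2 recruits the CCR4-NOT deadenylase and holds back the cell cycle. Egr1 and the Krüppel-like factors (Klf) are zinc finger transcription factors that bind GC-rich DNA, Ier3 modulates cell survival and ERK signalling, and Ier2 encodes a small nuclear protein.

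The sequence just upstream of a gene is where these factors bind, so the proximal promoters that held a CRE, EGR or CArG match are shown. A RefSeq promoter table (build GRCm38.p6) held 7 of the 10 members: Btg2, Dusp1, Ier3, Klf2, Klf4, Klf6 and Zfp36. The 250 bases before the start were searched on both strands. The full CRE, TGACGTCA, which is its own reverse complement, occurred in Dusp1 (143 to 136 bases before the start) and Btg2 (166 to 159 bases before the start), and in 1.55% of the 32851 promoters of the table. The EGR site GCGGGGGCG occurred in Klf2, Klf4 and Zfp36 and in 2.57% of promoters, and the second form GCGTGGGCG in none of the 7 and in 0.536% of promoters. The CArG box bound by the serum response factor occurred in Zfp36 (58 to 49 bases before the start) and in 1.47% of promoters. GGGCGG, which can overlap the EGR site, occurred in all 7 and in 32.7% of promoters, and TATAAA in none of the 7 and in 12.4%. Each line gives bases 250 to 48 before the start, 5′ to 3′ on the strand of the gene. Capitals mark the CRE in Dusp1 and Btg2, the EGR site in Klf2 and Klf4 (in Klf4 as its reverse complement), and the EGR site and then the CArG box in Zfp36. The windows are chr17:26508520-26508722 (minus strand) for Dusp1, chr1:134079203-134079405 (minus strand) for Btg2, chr8:72318812-72319014 (plus strand) for Klf2, chr4:55532523-55532725 (minus strand) for Klf4 and chr7:28379276-28379478 (minus strand) for Zfp36.
Dusp1: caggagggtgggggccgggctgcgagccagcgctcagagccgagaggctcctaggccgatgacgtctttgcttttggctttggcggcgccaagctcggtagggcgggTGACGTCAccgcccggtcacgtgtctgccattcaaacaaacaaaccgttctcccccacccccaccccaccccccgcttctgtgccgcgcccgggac
Btg2: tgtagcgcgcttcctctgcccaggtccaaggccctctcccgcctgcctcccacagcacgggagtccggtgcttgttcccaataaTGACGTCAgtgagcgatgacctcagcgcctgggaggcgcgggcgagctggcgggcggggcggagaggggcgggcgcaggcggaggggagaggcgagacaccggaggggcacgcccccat
Klf2: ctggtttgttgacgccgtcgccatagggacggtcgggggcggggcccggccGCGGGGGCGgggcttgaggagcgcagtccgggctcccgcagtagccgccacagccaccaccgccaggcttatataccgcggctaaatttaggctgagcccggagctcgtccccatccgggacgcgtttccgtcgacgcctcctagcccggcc
Klf4: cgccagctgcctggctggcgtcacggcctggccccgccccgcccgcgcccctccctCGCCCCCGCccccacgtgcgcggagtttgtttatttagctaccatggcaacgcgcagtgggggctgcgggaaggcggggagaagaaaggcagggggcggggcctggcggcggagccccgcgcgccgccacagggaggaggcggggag
Zfp36: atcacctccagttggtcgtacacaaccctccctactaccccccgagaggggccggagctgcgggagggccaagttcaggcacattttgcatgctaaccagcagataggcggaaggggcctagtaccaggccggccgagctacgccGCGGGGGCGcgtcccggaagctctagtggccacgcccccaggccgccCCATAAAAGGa
These matches are descriptions of the letters and not of bound factors.

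Across the post-PH groups analysed, a limma F test of any post-PH group against C0 passed an adjusted p of 0.05 for 10 of the 10 members, against 88.2% of all genes tested. Hours of the day differed between these groups, so the F test mixes surgery and time of day. At an adjusted p of 1e-07 it passed for 8 of 10, against 57.2% of genes, and the exceptions were Egr1 (adjusted p = 0.000996) and Ier2 (adjusted p = 2.98e-06). The group with the highest mean was X1 for Dusp1, Klf2, Klf4 and Klf10, X4 for Btg2, Ier3 and Zfp36, X28 for Egr1 and Ier2, and X48 for Klf6. When the 19 group means of a member were put in order, only 0 to 4 of the 18 gaps between neighbours were larger than the larger SD of the 2 groups, so most of the order lay within the spread between livers. For Ier3 and Klf6 no gap was larger.

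**Figure D1:**
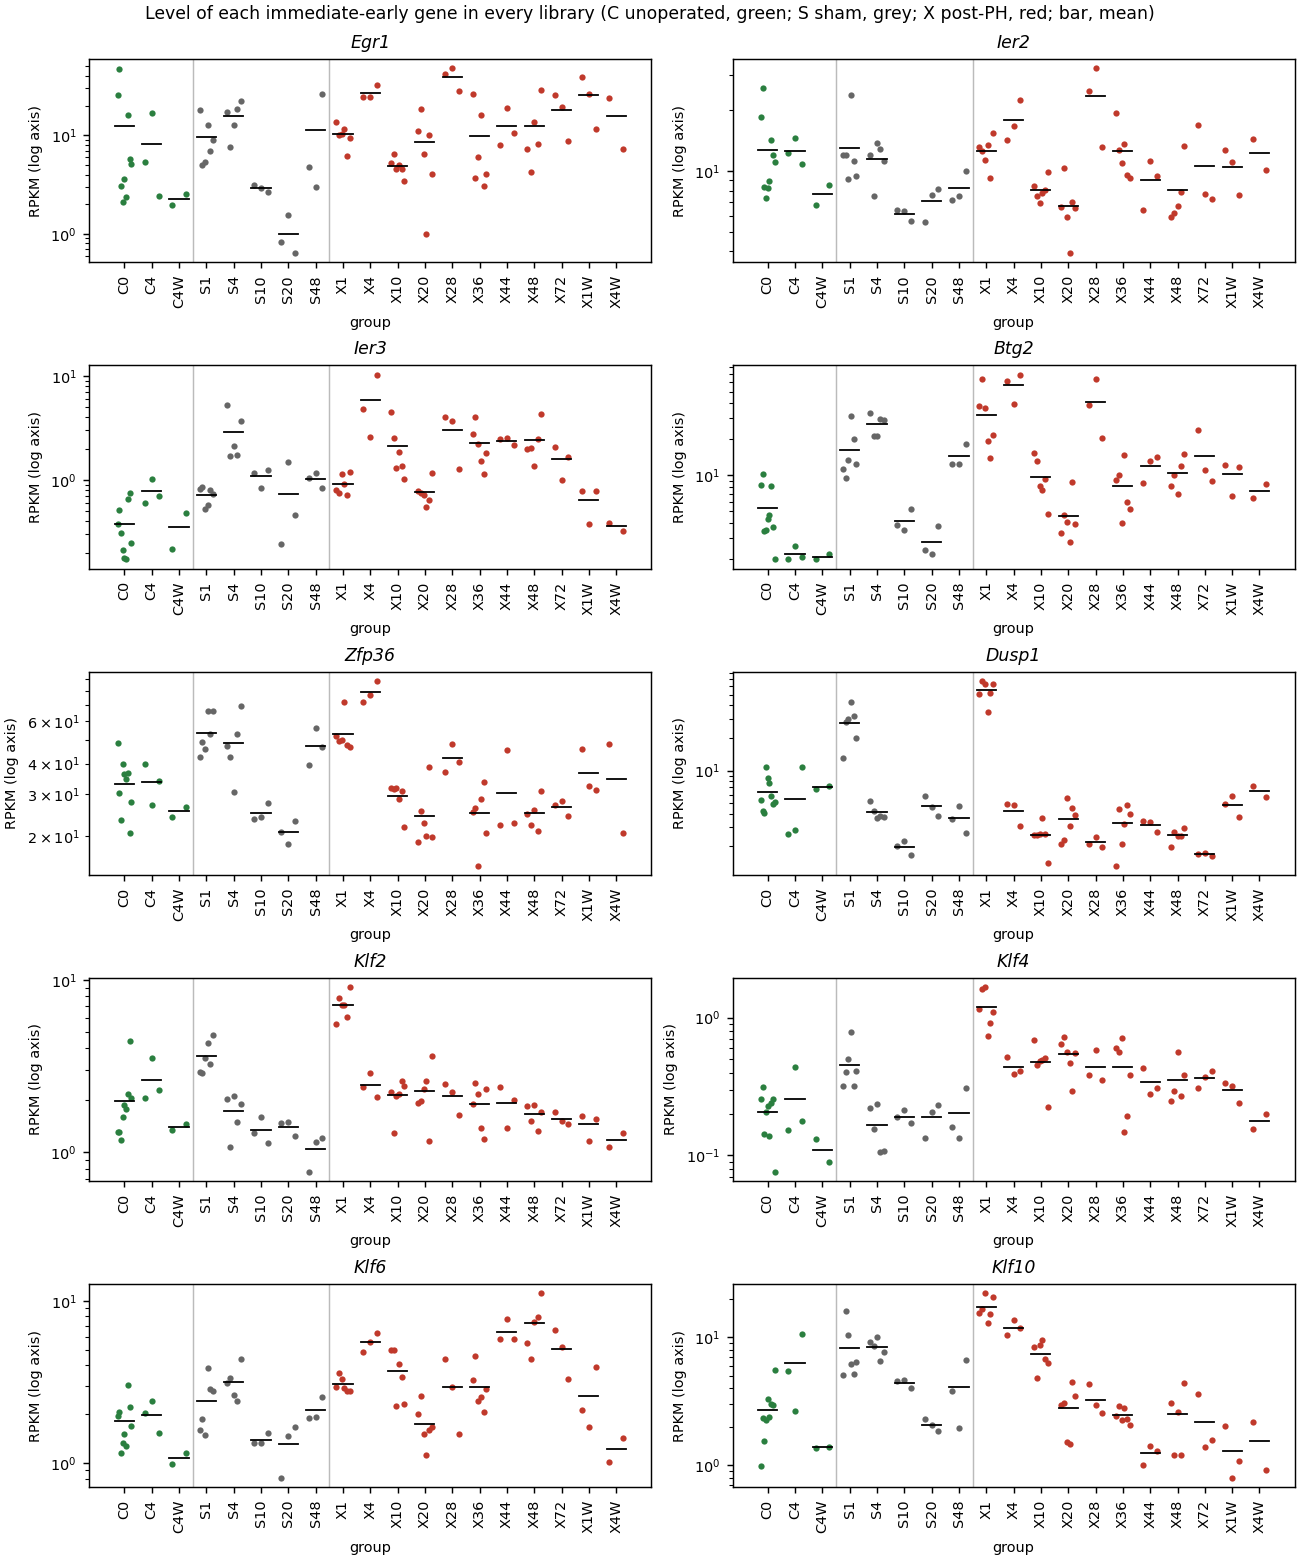
RPKM (log axis) of each of the 10 genes in every one of 80 libraries, by group, with unoperated liver in green, sham in grey and post-PH in red. Points are livers and bars are group means. Dusp1, Klf2, Klf4 and Klf10 are highest at X1, Btg2, Ier3 and Zfp36 at X4, and Klf6 at X48.

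The first comparison set the livers 1 h after surgery (ZT3) against C0 (ZT2). No unoperated group was at ZT3, so the operation and the hour of the day cannot be told apart there. In X1 against C0, 8 of 10 members were called, all higher, where 13.5% of genes tested were called. In S1 against C0 it was 7 of 10, all higher, where 7.77% of genes were called. The median difference over the members was 1.29 in X1 and 0.70 in S1, while that over all genes was -0.11 and -0.12. Both comparisons share the C0 livers. Resection added to the sham response: in X1 against S1, 4 of 10 members were called, all higher, against 0.65% of genes tested, which is 100 genes. These were Dusp1, Klf2, Klf4 and Klf10, and the median difference was 0.64 over the members and 0.01 over all genes. With replicates 1 to 3 of both groups alone, Klf4, Btg2, Dusp1 and Klf2 were called (adjusted p = 0.000103, 0.00352, 0.0114 and 0.0154). With replicates 4 to 6 of both groups alone, 0 of 10 were called at the same smaller n. With all replicates, 5 members had an unadjusted p below 0.05. Why the replicate sets differed was not tested. The summed RPKM of 8 neutrophil markers was 8.88 to 20.1 in X1 and 2.58 to 11.7 in S1, with 1 of 8 called. It was 0.412 to 50.7 in C0, and the median was 1.16 in C0, 4.51 in S1 and 14.2 in X1. Of the 8 markers, 4 were called higher in X1 than in C0. The sum of 10 endothelial markers was 20.2 to 35.1 RPKM in X1 and 23.7 to 35.3 in S1, with 0 of 10 called. The part of neutrophil RNA in the differences was not tested.

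Dusp1 showed the largest rise of the set at 1 h. It ranged from 4.08 to 10.8 RPKM in the 9 C0 livers (median 5.38), from 13.1 to 43.1 in S1 (median 28.9) and from 35 to 67.5 in X1 (median 57.4). Every S1 and X1 liver was above every C0 liver, whereas S1 and X1 overlapped. Dusp1 rose 8.72-fold in X1 (log2 difference 3.12, SE 0.23, adjusted p = 1.26e-17) and 4.21-fold in S1 (2.07, SE 0.23, adjusted p = 3.16e-10). The difference between X1 and S1 was 1.05 (SE 0.25, 95% interval 0.55 to 1.55, adjusted p = 0.0179). That call was lost without S1 replicate 1 (0.86, adjusted p = 0.138), S1 replicate 6, X1 replicate 2 or X1 replicate 3. S4 livers held 5.22, 4.25, 3.64, 3.84 and 3.71 RPKM and X4 livers 4.90, 4.78 and 3.08 at 4 h, both within the range of the C4 livers at 2.61, 2.84 and 10.8, and X4 differed from C4 by -0.06 (SE 0.36, adjusted p = 0.92). Dusp1 fell from X1 to X4 by 3.62 (SE 0.31, adjusted p = 2.38e-15), a 12.3-fold difference, and from S1 to S4 by 2.59 (SE 0.26, adjusted p = 1.03e-12). The fall after PH exceeded that after sham by 1.03 on the log2 scale (SE 0.40), a difference that did not pass the adjusted threshold (adjusted p = 0.139).

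Later, Dusp1 lay below the unoperated level. The X48 livers held 1.96, 2.73, 2.5, 2.48 and 2.92 RPKM and the X72 livers 1.71, 1.72 and 1.63, all under the lowest C0 liver. Dusp1 was lower than C0 by 2.27-fold in X48 (log2 difference -1.18, SE 0.24, adjusted p = 2.38e-05) and by 3.22-fold in X72 (-1.69, SE 0.29, adjusted p = 1.53e-06). The sham livers at 48 h, at 3.58, 4.69 and 2.64 RPKM, differed from C0 by -0.72 (SE 0.29, adjusted p = 0.075), and X48 differed from S48 by -0.46 (SE 0.32, adjusted p = 0.242). With all libraries scaled to the same median, that last difference was -0.91 (adjusted p = 0.0205). At X1W, with 4.89, 5.82 and 3.74 RPKM, the difference from C0 was -0.32 (SE 0.29, adjusted p = 0.423).

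Btg2, the antiproliferative partner of the deadenylase, was already high at 1 h and higher at 4 h. C0 livers ranged from 2.01 to 10.3 RPKM (median 4.29), S1 from 9.56 to 31.1 (median 12.9) and X1 from 13.8 to 63.4 (median 29.2). X1 did not overlap with C0, while S1 did. The rise over C0 was 5.69-fold in X1 (2.51, SE 0.29, adjusted p = 3.71e-10) and 3.03-fold in S1 (1.60, SE 0.29, adjusted p = 3.98e-05). X1 and S1 differed by 0.91 (SE 0.32, adjusted p = 0.252). The replicate sets differed here: replicates 1 to 3 alone gave 1.95 (SE 0.42, adjusted p = 0.00352) and replicates 4 to 6 alone gave -0.13 (SE 0.43, adjusted p = 0.975), so the sign did not hold in both.

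At ZT6 the contrast with unoperated liver was larger for Btg2 than for any other member. C4 livers held 1.99, 2.55 and 2.08 RPKM, S4 livers 33.3, 21.2, 21.2, 29.5 and 29.1, and X4 livers 61.7, 39.5 and 69.6. The 3 groups did not overlap. Btg2 was 22.7-fold higher in X4 than in C4 (4.51, SE 0.45, adjusted p = 7.52e-13) and 10.9-fold higher in S4 than in C4 (3.45, SE 0.41, adjusted p = 1.11e-10). X4 exceeded S4 by 1.06 (SE 0.41, 95% interval 0.25 to 1.87, adjusted p = 0.0695), which was called with the libraries scaled to the same median (adjusted p = 0.0472). Markers of other cells also differed between X4 and C4: 7 of 8 stellate, 6 of 10 endothelial, 5 of 8 macrophage and 4 of 4 B cell markers were called lower in X4, and in S4 these counts were 7, 6, 3 and 4. Of all 15396 genes tested, 5218 were called lower in X4 and 4777 in S4. Of the macrophage markers, 1 was called higher in each, Cd14, by 3.08 in X4 and 3.22 in S4. The summed stellate markers were 37.9 to 49.7 RPKM in X4, 32.4 to 51.0 in S4 and 76.3 to 89.0 in C4. Their part in the differences from C4 was not tested. At 10 h the difference of Btg2 from sham was 1.10 (SE 0.39, adjusted p = 0.0554) and at 20 h 0.61 (SE 0.39, adjusted p = 0.324).

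Btg2 was high again a day after the first peak. The X28 livers, also at ZT6, held 38.6, 63.8 and 20.4 RPKM, which was 15.2-fold above C4 (3.93, SE 0.45, adjusted p = 2.56e-10), and 3.53 on the log2 scale without X28 replicate 2 (adjusted p = 1.31e-07). X28 and X4 differed by -0.58 (SE 0.45, adjusted p = 0.331), and by -0.97 without X28 replicate 2 (adjusted p = 0.137). Between these groups Btg2 was low in X20, from 2.79 to 8.85 RPKM (median 3.98), a range that overlaps that of C0. It remained above C0 in X48 (1.04, SE 0.31, adjusted p = 0.00293), X72 (1.43, SE 0.37, adjusted p = 0.000899) and S48 (1.52, SE 0.37, adjusted p = 0.0026). The X48 call was lost with scaled libraries (0.56, adjusted p = 0.118). No difference between X48 and S48 was called (-0.48, SE 0.41, adjusted p = 0.359), the S48 livers standing at 12.5, 12.4 and 18.2 RPKM.

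Zfp36, the mRNA-destabilizing protein, had the highest level of the set in unoperated liver, with 20.6 to 48.6 RPKM in C0 (median 34.5). At 1 h it rose after both operations. S1 ranged from 42.8 to 65.9 RPKM (median 51.2) and X1 from 46.9 to 72.2 (median 49.9). The difference from C0 was 0.72 in S1 (SE 0.17, adjusted p = 0.000988) and 0.71 in X1 (SE 0.17, adjusted p = 0.000619), and that between X1 and S1 was -0.01 (SE 0.19, 95% interval -0.39 to 0.36). At 4 h the PH livers, at 72.0, 76.9 and 88.3 RPKM, lay above the sham livers at 47.5, 42.6, 30.5, 53.1 and 69.4. X4 exceeded S4 by 0.74 (SE 0.24, adjusted p = 0.0223) and C4 by 1.24 (SE 0.26, adjusted p = 5.35e-05). The first of these was lost without S4 replicate 3 (0.59, adjusted p = 0.110), X4 replicate 5 (0.76, adjusted p = 0.0627) or X4 replicate 6 (0.66, adjusted p = 0.121). The order was opposite at 48 h. X48 livers held 24.8, 22.3, 25.7, 21.0 and 30.9 RPKM and S48 livers 39.3, 56.1 and 46.8, with no overlap, and Zfp36 was 1.89-fold lower in X48 than in S48 (-0.92, SE 0.24, adjusted p = 0.00105). That call stood without each of the 8 livers in turn, with differences from -1.04 to -0.79, and was -1.41 with scaled libraries (adjusted p = 4.51e-06). Zfp36 in S48 differed from C0 by 0.55 (SE 0.21, adjusted p = 0.0646), and all X48 livers lay within the C0 range.

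**Figure D2:**
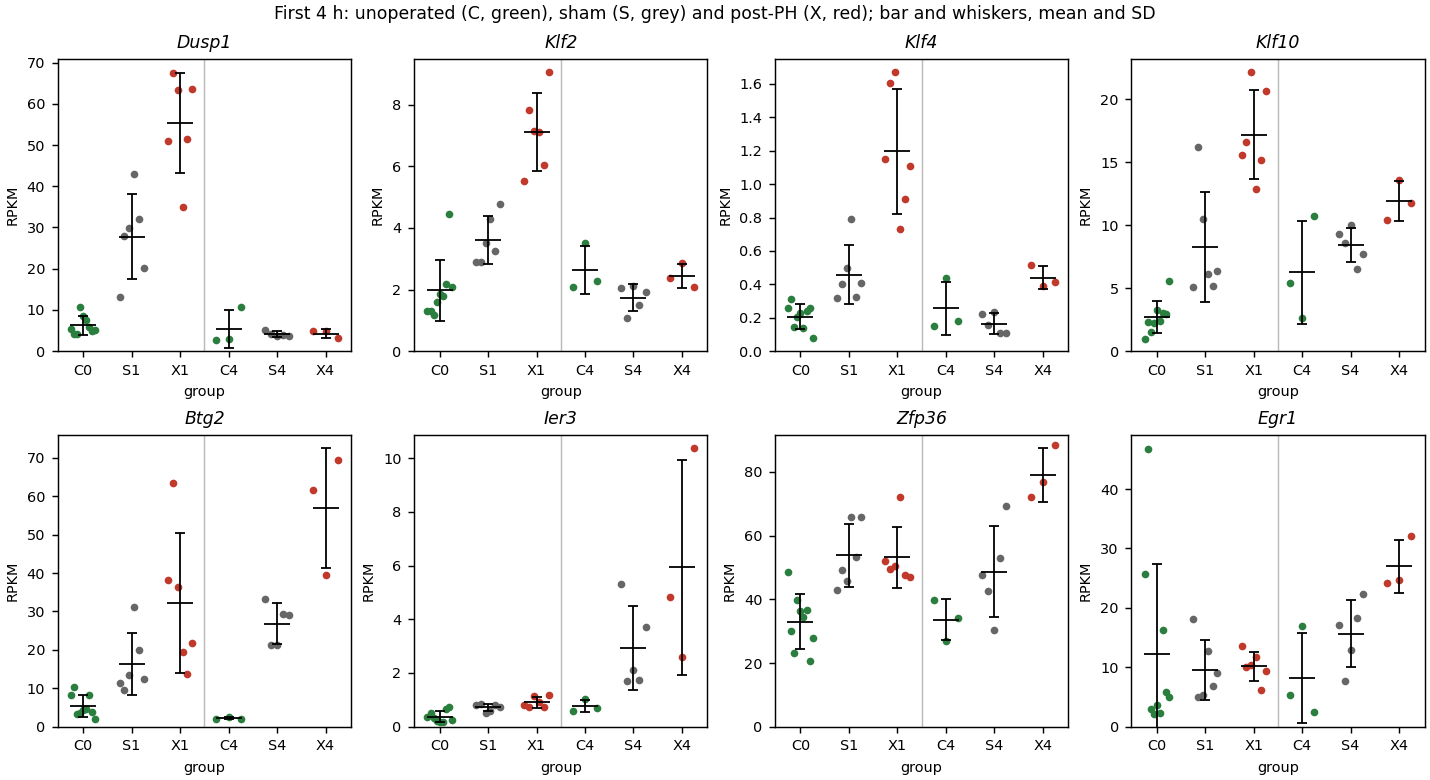
RPKM of 8 of the genes in the first hours, on linear axes that start at 0, in C0, S1 and X1 (left of the line) and in C4, S4 and X4 (right of the line). Points are livers and bars with whiskers are the mean and SD. Dusp1, Klf2 and Klf4 are high at 1 h and low at 4 h, whereas Btg2, Ier3 and Zfp36 have their highest mean in X4.

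Among the Krüppel-like factors, Klf2 and Klf4, both known from endothelium and from the control of quiescence, rose together at 1 h. Klf2 ranged from 1.18 to 4.44 RPKM in C0 (median 1.79), from 2.89 to 4.78 in S1 (median 3.38) and from 5.54 to 9.08 in X1 (median 7.13). No X1 liver overlapped with an S1 or C0 liver. Klf2 rose 3.50-fold in X1 over C0 (1.81, SE 0.18, adjusted p = 7.08e-13), 1.82-fold in S1 over C0 (0.87, SE 0.18, adjusted p = 0.000163) and 1.92-fold in X1 over S1 (0.94, SE 0.19, adjusted p = 0.00223). At 4 h the level was 2.38, 2.86 and 2.10 RPKM in X4 and 2.04, 1.07, 2.12, 1.5 and 1.91 in S4, and the difference was 0.47 (SE 0.24, adjusted p = 0.208). Klf2 fell by 1.44 from X1 to X4 (SE 0.23, adjusted p = 8.89e-07) and by 0.97 from S1 to S4 (SE 0.20, adjusted p = 5.15e-05).

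Klf4 was the least abundant member. Its C0 values of 0.0762 to 0.313 RPKM (median 0.23) stood on a median of about 17 reads, and S1 ranged from 0.319 to 0.79 (median 0.405) and X1 from 0.731 to 1.67 (median 1.13, about 106 reads). All X1 livers were above all C0 livers, and X1 and S1 overlapped. The X1 difference from C0 was 1.64 (SE 0.16, adjusted p = 4.81e-13), that of S1 from C0 was 0.62 (SE 0.16, adjusted p = 0.0025), and that of X1 from S1 was 1.02 (SE 0.17, adjusted p = 0.00011). The S1 call was lost without S1 replicate 4 (0.50). With the added 0.25 these values understate the change of so low a gene.

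Klf4 was also above sham at 4, 10 and 20 h. Its level was 0.518, 0.392 and 0.411 RPKM in X4 against 0.22, 0.156, 0.237, 0.106 and 0.108 in S4 (0.74, SE 0.22, adjusted p = 0.0131). It ranged from 0.224 to 0.694 in X10 (median 0.487) against 0.19, 0.213 and 0.172 in S10 (0.69, SE 0.21, adjusted p = 0.0222), and from 0.291 to 0.723 in X20 (median 0.556) against 0.134, 0.205 and 0.234 in S20 (0.83, SE 0.21, adjusted p = 0.00545). In each of these 3 comparisons every PH liver was above every sham liver. The 4 h call was lost without X4 replicate 4 (0.66, adjusted p = 0.0801), the 10 h call without any one of S10 replicates 1, 2 and 3 or X10 replicate 1 (adjusted p from 0.0622 to 0.0967), and the 20 h call without S20 replicate 1 (0.73, adjusted p = 0.0621). At 48 h the difference was 0.41 (SE 0.22, adjusted p = 0.122). The summed endothelial markers were 17.8 to 26.4 RPKM in X10 and 18.6 to 21.8 in S10, with 1 of 10 called, and 22.8 to 33.1 in X20 and 22.6 to 27.3 in S20, with 0 of 10 called. The summed stellate markers did not overlap in either comparison. They were 47.3 to 58.4 RPKM in X10 and 30 to 43.8 in S10, with 1 of 8 called higher, and 58.0 to 79.9 in X20 and 34.1 to 57.9 in S20, with 3 of 8 called higher. Of all genes tested, 7.02% were called in X10 against S10 and 7.11% in X20 against S20. The part of the stellate markers in the Klf4 differences was not tested.

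Klf10, induced early by TGF-beta in many cells, was also highest at 1 h. C0 ranged from 0.982 to 5.58 RPKM (median 2.39), S1 from 5.13 to 16.2 (median 6.26) and X1 from 12.9 to 22.1 (median 16.1). X1 did not overlap with C0. Klf10 rose 6.30-fold in X1 over C0 (2.66, SE 0.27, adjusted p = 2.06e-12), 2.85-fold in S1 over C0 (1.51, SE 0.27, adjusted p = 1.99e-05) and 2.21-fold in X1 over S1 (1.14, SE 0.29, adjusted p = 0.0314). The last call was the least stable of the 4: it was lost without any one of S1 replicates 1, 4, 5 and 6 or X1 replicates 2, 3 and 6, with an adjusted p of 0.0578 to 0.135 and differences of 1.04 to 1.15, and also with the libraries scaled to the same median (1.10, adjusted p = 0.0518). X4 livers held 10.4, 13.6 and 11.8 RPKM, and X4 differed from X1 by -0.50 (SE 0.36, adjusted p = 0.29). Klf10 also differed between the unoperated groups. C4 held 5.45, 2.65 and 10.7 RPKM, and C4 exceeded C0 by 1.06 (SE 0.34, adjusted p = 0.0247), a call that was lost without C4 replicate 3 (0.58, adjusted p = 0.343), C4 replicate 1 (1.05, adjusted p = 0.0721) or C0 replicate 1 (0.91, adjusted p = 0.0512). X4 exceeded C4 by 1.10 (SE 0.41, adjusted p = 0.0193), which was lost without C4 replicate 2 (0.62, adjusted p = 0.252) or X4 replicate 5 (1.00, adjusted p = 0.0627). At 28 h, with 4.29, 2.96 and 2.55 RPKM, Klf10 was 3.52-fold below X4 (-1.82, SE 0.41, adjusted p = 0.000295).

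Klf6, a factor known from the wound response and from stellate cells, moved on another schedule. It was 1.16 to 3.04 RPKM in C0 (median 1.68), 1.48 to 3.84 in S1 (median 2.31) and 2.76 to 3.58 in X1 (median 2.92). X1 exceeded C0 by 0.73 (SE 0.20, adjusted p = 0.00322), while X1 and S1 differed by 0.38 (SE 0.22, adjusted p = 0.647). At 4 h the X4 livers held 4.83, 5.56 and 6.34 RPKM, all above the S4 livers at 3.13, 3.33, 2.61, 2.42 and 4.38. X4 exceeded C4 by 1.39 (SE 0.31, adjusted p = 0.000136) and S4 by 0.78 (SE 0.28, adjusted p = 0.0482), and the latter call was lost without any one of S4 replicates 1 to 4 or X4 replicates 4 to 6 (adjusted p from 0.0582 to 0.194). At 10 h the gap was 1.19 (SE 0.27, adjusted p = 0.0017), with 2.24 to 5.01 RPKM in X10 (median 3.73) and 1.33, 1.32 and 1.54 in S10. The stellate markers given for Klf4 were likewise higher in X10 than in S10, without overlap of their sums, and their part was not tested. X20 then ranged from 1.12 to 2.58 RPKM (median 1.64) and did not differ from S20 by a called amount (0.36, SE 0.27, adjusted p = 0.416).

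Klf6 had its highest group means in X48 and X44, followed by X4 and X72. X44 livers held 5.80, 7.74 and 5.84 RPKM and X48 livers 5.52, 4.38, 7.36, 7.92 and 11.1, against 1.91, 1.91 and 2.56 in S48. X44 and X20, both at ZT22, did not overlap and differed by 1.77 (SE 0.27, adjusted p = 2.67e-07). Klf6 was 3.04-fold higher in X48 than in S48 (1.60, SE 0.28, adjusted p = 3.54e-06), 3.61-fold higher in X48 than in C0 (1.85, SE 0.21, adjusted p = 2.31e-11) and 2.56-fold higher in X72 than in C0 (1.36, SE 0.26, adjusted p = 8.99e-06). The median of all genes also lay 0.27 higher in X48 than in S48, and with the libraries scaled to the same median the Klf6 difference was 1.14 (adjusted p = 0.0004). The S48 livers did not differ from C0 by a called amount (0.25, SE 0.26, adjusted p = 0.557). At 1 and 4 weeks Klf6 was back near the unoperated level, with differences of 0.43 (SE 0.26, adjusted p = 0.202) from C0 and 0.14 (SE 0.38) from C4W. Stellate cell markers also differed at 48 h. In X48 against S48, where 27.2% of genes were called, 5 of 8 were called higher. Against C0, 3 of 8 were called lower in S48 and 3 of 8 higher in X48, where 8.88% and 38.1% of genes were called. The median marker difference from C0 was -0.62 in S48 and 0.08 in X48. The summed RPKM of these markers was 60.7 to 111 in X48, 48.1 to 52.0 in S48 and 51.9 to 90.2 in C0. Their part in the Klf6 difference was not tested.

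**Figure D3:**
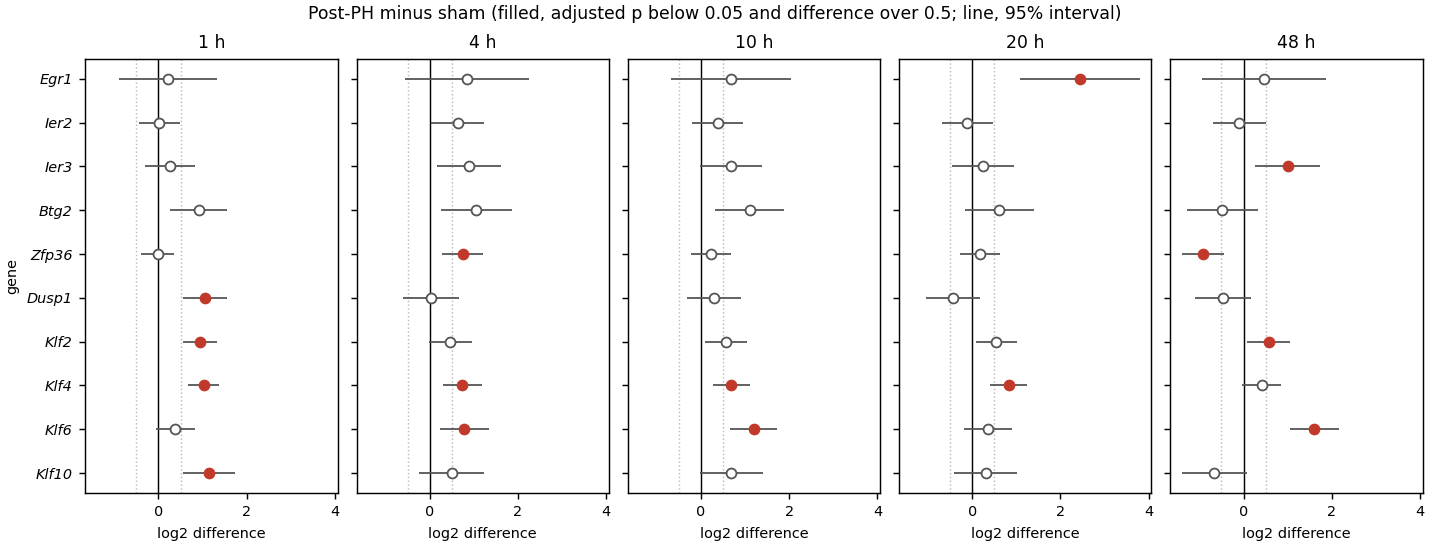
Log2 difference between post-PH and sham livers (log2(RPKM + 0.25) scale) for the 10 genes in 5 panels from 1 h to 48 h after surgery, with 95% intervals. Filled circles mark an adjusted p below 0.05 with a difference over 0.5, and dotted lines mark that 0.5. Klf4 is filled at 1, 4, 10 and 20 h and Klf6 at 4, 10 and 48 h, and Zfp36 is on opposite sides of 0 at 4 h and 48 h.

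Egr1, the zinc finger factor most often used as an immediate-early marker, was the most variable member in unoperated liver. C0 ranged from 2.13 to 46.7 RPKM with a median of 5.07, a 12.3 mean and an SD of 15.1 (n = 9). S1 ranged from 5.00 to 18.2 (median 7.94) and X1 from 6.18 to 13.5 (median 10.2), so that both lay within the range of C0. No rise at 1 h was detectable: the difference from C0 was 0.51 in X1 (SE 0.51, 95% interval -0.51 to 1.52, adjusted p = 0.463) and 0.30 in S1 (SE 0.51, adjusted p = 0.718), and X1 and S1 differed by 0.21 (SE 0.56, adjusted p = 0.979). At 4 h, X4 livers held 24.2, 24.7 and 32.1 RPKM, S4 livers 17.1, 7.63, 12.8, 18.3 and 22.3, and C4 livers 5.37, 16.9 and 2.44. X4 exceeded C4 by 2.08 (SE 0.79, adjusted p = 0.0202), a call lost without C4 replicate 1 (1.99, adjusted p = 0.0531), C4 replicate 3 (1.46, adjusted p = 0.155) or X4 replicate 6 (1.95, adjusted p = 0.0596), and differed from S4 by 0.85 (SE 0.70, adjusted p = 0.499).

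Egr1 had its highest group mean in X28, with 41.4, 47.7 and 27.8 RPKM in its 3 livers. X28 exceeded C4 by 2.59 (SE 0.79, adjusted p = 0.00568), by 2.42 without X28 replicate 2 (adjusted p = 0.0266), and by 1.96 without C4 replicate 3 (adjusted p = 0.0652). At 20 h it separated PH from sham more than at any other time, with 0.988 to 18.7 RPKM in X20 (median 8.27) and 0.837, 1.55 and 0.64 in S20. The difference was 2.44 (SE 0.68, 95% interval 1.08 to 3.80, adjusted p = 0.0113), although 1 X20 liver lay in the sham range, and it was lost without S20 replicate 1 (2.37, adjusted p = 0.0621) or S20 replicate 3 (2.22, adjusted p = 0.0591). The spread stayed wide thereafter: S48 livers held 4.72, 2.99 and 26.0 RPKM and X1W livers 39.0, 26.1 and 11.5. X1W exceeded C0 by 1.68 (SE 0.64, adjusted p = 0.0361), which was lost without any one of 7 of the 12 livers, with differences down to 1.29.

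Of the immediate early response genes, Ier3, the survival-related member, was a 4 h gene. It was low in C0, from 0.172 to 0.742 RPKM (median 0.307, about 11 reads), and ranged from 0.526 to 0.85 in S1 (median 0.768) and from 0.721 to 1.18 in X1 (median 0.85). The difference from C0 was 0.94 in X1 (SE 0.26, adjusted p = 0.00326) and 0.68 in S1 (SE 0.26, adjusted p = 0.0476), the latter lost in 11 of 15 refits with 1 liver left out. S4 livers held 5.32, 1.71, 2.12, 1.75 and 3.69 RPKM and X4 livers 4.85, 2.59 and 10.4, against 0.603, 1.03 and 0.702 in C4. Neither operated group overlapped with C4. Ier3 was 5.28-fold higher in X4 than in C4 (2.40, SE 0.41, adjusted p = 9.63e-07) and 2.86-fold higher in S4 than in C4 (1.52, SE 0.36, adjusted p = 0.000299), and X4 and S4 differed by 0.88 (SE 0.36, adjusted p = 0.0956). It rose from 1 to 4 h by 2.22 after PH (SE 0.35, adjusted p = 5.72e-07) and by 1.59 after sham (SE 0.30, adjusted p = 1.15e-05). The summed neutrophil markers were 7.36 to 44.8 RPKM in S4 and 4.66 to 10.1 in X4, against 1.30 to 5.02 in C4, and their part in the levels at 4 h was not tested.

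Ier3 was still high on later days. X28 livers held 4.03, 3.73 and 1.29 RPKM, X44 livers 2.49, 2.52 and 2.16, X48 livers 1.98, 2.05, 1.36, 2.51 and 4.29, and X72 livers 2.08, 1.01 and 1.65. Every one of these was above every C0 liver, though X28 (ZT6) and X44 (ZT22) were not at the hour of C0 (ZT2). Every X28 liver was also above the C4 livers at ZT6, which held 0.603 to 1.03 RPKM. The difference from C0 was 2.08 in X48 (SE 0.28, adjusted p = 1.85e-09) and 1.56 in X72 (SE 0.33, adjusted p = 6.43e-05), and that of X28 from C4 was 1.55 (SE 0.41, adjusted p = 0.0014), or 1.34 without X28 replicate 2 (adjusted p = 0.0164). The sham livers at 48 h, with 1.05, 1.18 and 0.841 RPKM, also exceeded C0, by 1.08 (SE 0.33, adjusted p = 0.0178), a call lost without S48 replicate 1 (1.06, adjusted p = 0.078) or S48 replicate 2 (0.99, adjusted p = 0.0918). X48 exceeded S48 by 1.00 (SE 0.36, adjusted p = 0.0208), which was lost with scaled libraries (0.57, adjusted p = 0.235) and without S48 replicate 1 (1.02, adjusted p = 0.0522), S48 replicate 3 (0.89, adjusted p = 0.0854) or X48 replicate 5 (0.79, adjusted p = 0.0855).

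Ier2, by contrast, gave few calls. C0 ranged from 7.33 to 25.9 RPKM (median 11.1), S1 from 9.17 to 23.9 (median 11.6) and X1 from 9.20 to 15.4 (median 12.9). The ranges overlapped, and the X1 difference from C0 was 0.08 (SE 0.21, 95% interval -0.35 to 0.51, adjusted p = 0.826). It was 14.3, 16.7 and 22.6 RPKM in X4, above the S4 livers at 12.0, 7.52, 13.7, 12.9 and 11.2, but the difference of 0.63 (SE 0.30) had an adjusted p of 0.158. X28 livers held 25, 32.2 and 13.2 RPKM and exceeded C4 by 0.80 (SE 0.33, adjusted p = 0.0434). That call was lost without X28 replicate 2 (0.53, adjusted p = 0.266), X28 replicate 1 (0.71, adjusted p = 0.126), C4 replicate 1 (0.79, adjusted p = 0.0876) or C4 replicate 3 (0.70, adjusted p = 0.130). X48 lay below C0 by 1.52-fold (-0.60, SE 0.23, adjusted p = 0.0181), and this was lost without C0 replicate 2 (-0.46, adjusted p = 0.0613), X48 replicate 1 (-0.51, adjusted p = 0.0659) or X48 replicate 2 (-0.53, adjusted p = 0.0577). The sign was not the same in all subsets: replicates 4 to 6 alone gave 0.33 (adjusted p = 0.446), whereas scaled libraries gave -1.08 (adjusted p = 2.94e-05).

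Put together by comparison, PH exceeded sham for 3 of 10 members at 4 h (Klf4, Klf6 and Zfp36), for 2 at 10 h (Klf4 and Klf6) and for 2 at 20 h (Klf4 and Egr1). Of all genes tested, 8.64%, 7.02% and 7.11% were called in either direction. Of the 15396 genes, 486, 524 and 692 were called higher. At 48 h 4 were called (27.2%), with Klf6, Ier3 and Klf2 higher and Zfp36 lower. Klf2 there held 1.86, 1.51, 1.88, 1.33 and 1.72 RPKM in X48 against 0.77, 1.14 and 1.21 in S48 (0.57, SE 0.24, adjusted p = 0.0474), and this call was lost with scaled libraries (0.16, adjusted p = 0.647) and without any one of S48 replicates 1 and 2 or X48 replicates 1, 3 and 5. Scaling to the same median changed the split at 48 h to 1 higher and 3 lower. Sham at 4 h exceeded C4 for 2 members, Btg2 and Ier3, where 43.3% of genes were called in either direction and 1886 of 15396 were called higher. Sham at 48 h differed from C0 for 3 (8.88%), with Btg2 and Ier3 higher and Klf2 lower (-0.71, SE 0.22, adjusted p = 0.0196, lost without S48 replicate 1 at -0.55). X4 exceeded C4 for 6 of 10, where 45.6% of genes were called in either direction and 1800 of 15396 were called higher.

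The later post-PH groups were compared with unoperated liver. In X28 against C4, 5 members were called (32.7%), 4 higher and Dusp1 lower, and 4 without X28 replicate 2. Dusp1 there differed by -0.93 (SE 0.36, adjusted p = 0.0275), by -0.30 without C4 replicate 3 (adjusted p = 0.538), by -0.91 without X28 replicate 1 (adjusted p = 0.0627) and by -0.87 without X28 replicate 3 (adjusted p = 0.076), and without X28 replicate 2 it was -1.02 (adjusted p = 0.0396). X48 differed from C0 for 5 members (38.1%), with Klf6, Ier3 and Btg2 higher and Dusp1 and Ier2 lower, and X72 for 4 (33.2%), with the same 3 higher and Dusp1 lower. The median of all genes was 0.24 and 0.21 above C0 in these groups, and with scaled libraries the split was 2 higher and 4 lower in X48 and 3 higher and 4 lower in X72. At X1W 3 members were called (16.9%), with Egr1 and Btg2 higher and Klf10 lower, and 0 with the replicate number as a block. The hour of the X1W livers was only assumed to be that of C0, so a difference of hour cannot be told apart from PH there. Btg2 differed there by 1.01 (SE 0.37, adjusted p = 0.0286), lost without C0 replicate 9, X1W replicate 1 or X1W replicate 3. Egr1 and Btg2 were also lost with scaled libraries (1.46, adjusted p = 0.0774, and 0.80, adjusted p = 0.0935). Klf10 differed by -0.89 (SE 0.34, adjusted p = 0.0342), lost without C0 replicate 5, C0 replicate 9, X1W replicate 2 or X1W replicate 3. At 4 weeks limma called 0 members, with 2 at an unadjusted p below 0.05 (Btg2 and Egr1), and 0.065% of genes. The 2 X4W livers held 6.48 and 8.43 RPKM of Btg2 against 2.00 and 2.18 in C4W, and the difference was 1.71 (SE 0.56, adjusted p = 0.664).

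**Figure D4:**
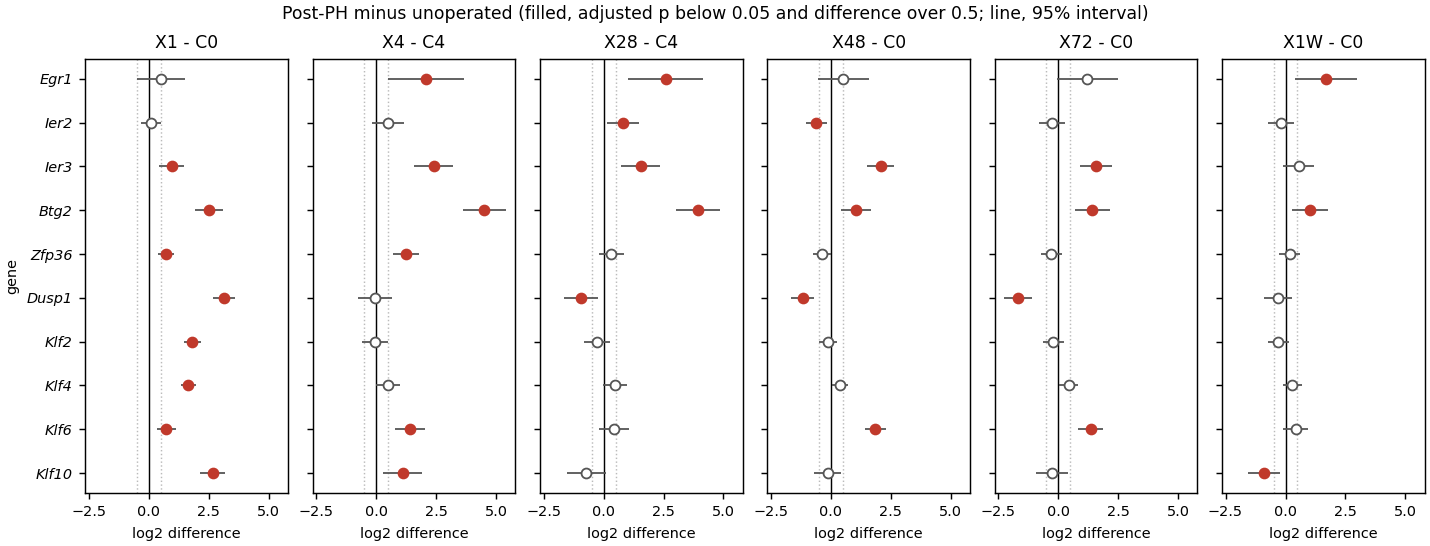
Log2 difference between post-PH groups and unoperated liver (log2(RPKM + 0.25) scale) for the 10 genes, with 95% intervals. Filled circles mark an adjusted p below 0.05 with a difference over 0.5. Dusp1 is far right of 0 in X1 and left of it in X48 and X72, while Btg2 is right of 0 in all 6 panels.

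Change over time was also compared within each operation. From 1 to 4 h, 7 members were called after PH (23.7% of genes) and 5 after sham (25.1%). In both, Dusp1, Klf2 and Klf4 were lower and Ier3 and Btg2 higher at 4 h, and after PH Klf6 and Zfp36 were higher too. Of these, the Btg2 rise after sham (0.81, SE 0.34, adjusted p = 0.0455) had an adjusted p of 0.0578 with the replicate number as a block and was lost in 7 of 11 refits with 1 liver left out. The Zfp36 rise after PH (0.58, SE 0.23, adjusted p = 0.0373) was lost in 7 of 9 refits with 1 liver left out, and the Btg2 rise after PH (0.96, SE 0.39, adjusted p = 0.0487) in 5 of 9. Klf6 (0.82, SE 0.27, adjusted p = 0.0134) was lost without X4 replicate 6 (0.73, adjusted p = 0.0791). When the change after PH was tested against that after sham, limma called 0 members, 2 had an unadjusted p below 0.05 (Dusp1 and Zfp36), and 4.68% of genes were called.

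Some pairs of post-PH groups shared an hour of the day. From X4 to X28, 4 members were called and all were lower (28.3% of genes): Klf10, Klf6 (-0.96, SE 0.31, adjusted p = 0.0112), Zfp36 (-0.91, SE 0.26, adjusted p = 0.0041) and Dusp1 (-0.87, SE 0.36, adjusted p = 0.0438). Without X28 replicate 2 it was 3, with Klf10 at -1.77, Klf6 at -1.02, Zfp36 at -1.02 and Dusp1 at -0.96 (adjusted p = 0.061). The Dusp1 call was lost in 5 of 6 refits with 1 liver left out, and that of Klf6 without X28 replicate 3 (-0.59, adjusted p = 0.172) or X4 replicate 6 (-0.87, adjusted p = 0.0517). From X20 to X44, 4 were called (16.1%), with Klf6, Ier3 (1.39, SE 0.35, adjusted p = 0.00155) and Btg2 (1.41, SE 0.39, adjusted p = 0.00429) higher and Klf10 lower (-0.96, SE 0.36, adjusted p = 0.0382, lost in 7 of 9 refits with 1 liver left out). From X48 to X72, limma called 0 members, 0 had an unadjusted p below 0.05, and 5.96% of genes were called. Between the unoperated groups, C4 differed from C0 for 2 members (7.89%), Klf10 and Btg2. Btg2 was lower in C4 by 1.04 (log2 difference -1.04, SE 0.37, adjusted p = 0.0454), a call that was lost in 8 of 12 refits with 1 liver left out.

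Likeness of course was measured as Pearson's r over the 19 group means of log2(RPKM + 0.25), which share libraries and hours, and is given as a description. Within the set, Klf2 and Klf4 (r = 0.83), Ier3 and Klf6 (r = 0.80) and Egr1 and Btg2 (r = 0.78) were most alike, whereas Dusp1 and Ier3 had r = -0.40. Among all genes with a mean log2 RPKM above 0 in some group, the AP-1 gene Fos was the nearest to both Btg2 (r = 0.87) and Egr1 (r = 0.83). The orphan nuclear receptor gene Nr4a1 was the nearest to Klf2 (r = 0.86), and Atp1b1, a subunit of the sodium pump, was the nearest to Klf4 (r = 0.89) and the second nearest to Klf2 (r = 0.84). Trp53inp1 was nearest to Dusp1 (r = 0.89), Apbb3 to Klf10 (r = 0.90), Sds to Zfp36 (r = 0.93), Ptpn12 to Ier3 (r = 0.94), Mob4 to Klf6 (r = 0.90) and Elovl5 to Ier2 (r = 0.73). The next in line were H3f3b for Btg2, Btg2 for Egr1, Sik1 for Klf4, Cabyr for Dusp1, Snhg3 for Klf10, Fam134b for Zfp36, Polr3d for Ier3, Tubb6 for Klf6 and Egr1 for Ier2.

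Related genes were counted from lists of families and of the pathway. Of all genes tested, 13.5% were called in X1 against C0, 7.77% in S1 against C0 and 0.65% in X1 against S1. Of the 7 other MAP kinase phosphatases tested, 3 were higher in X1 than in S1 and 0 lower, with a median difference of 1.06, and Dusp4 differed most (1.38, SE 0.19, adjusted p = 1.46e-06). Against C0, Dusp8 was the most raised of them, by 2.66 in X1 (SE 0.19, adjusted p = 1.45e-18) and by 1.5 in S1 (SE 0.19, adjusted p = 8.28e-09). Of the 19 other immediate-early genes tested, 14 were higher and 1 lower in X1 than in C0, 12 higher and 2 lower in S1 than in C0, and 5 higher in X1 than in S1. Nr4a1 led all 3, at 4.74 (SE 0.32), 2.77 (SE 0.32) and 1.97 (SE 0.35). All 7 AP-1 genes tested were higher than C0 in X1 and in S1, and Fosl2 was the 1 that was higher in X1 than in S1 (0.88, SE 0.17, adjusted p = 0.00164).

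Of the 9 other KLF genes tested, 5 were higher in X1 than in C0, with Klf3 first (1.59, SE 0.15, adjusted p = 3.29e-13), 5 were higher in S1 than in C0, and 0 were called in X1 against S1 by limma. Of the 6 other Zfp36, BTG and TOB genes, 1 was higher in X1 than in S1, Zfp36l1 (0.74, SE 0.16, adjusted p = 0.00641). In X48 against S48, where 27.2% of all genes were called, 1 was higher, Btg3 (1.59, SE 0.29, adjusted p = 6.41e-06), and 1 lower, Zfp36l1 (-0.76, SE 0.21, adjusted p = 0.00203). In X4 against S4, where 8.64% of all genes were called, 2 were higher, with Zfp36l2 first (0.81, SE 0.22, adjusted p = 0.00716), and 1 was lower, Tob1, another antiproliferative gene (-1.20, SE 0.22, adjusted p = 5.26e-05). Of the 18 kinases and transcription factors upstream that were tested, 0 were called in X1 against S1, and 1 in X1 against C0, which was Srf itself (0.65, SE 0.13, adjusted p = 3.11e-05).

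**Figure D5:**
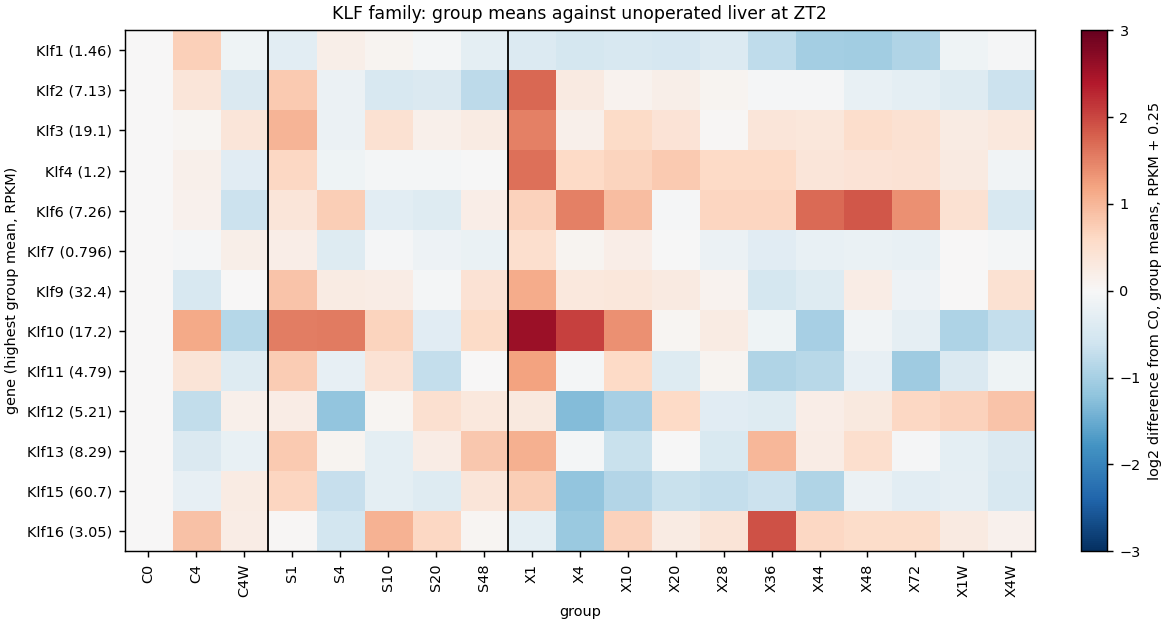
KLF family genes with a group mean of at least 0.25 RPKM: log2 difference of the group mean from C0 (RPKM + 0.25), in colour, by group, with the highest group mean in RPKM beside each name. X1 is the reddest column for Klf2, Klf3, Klf4, Klf7, Klf9, Klf10, Klf11, Klf13 and Klf15. Klf6 is red again in X44, X48 and X72.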

How the data were processed

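The authors prepared strand-specific polyA RNA libraries, sequenced them as single-end reads and deposited 1 table of log2 RPKM per gene and library. Per the labels the reads were aligned to mm9 with TopHat2 2.0.13 and Bowtie2, with SAMtools 0.1.19 and featureCounts also named. The table had 84 columns, of which 80 matched 1 labelled sample each and 4 were not used. Genes without reads carry a floor value of -14.3 log2 RPKM, which is 52.9% of all values. Counts were not in the table, so depth was estimated from the steps between low values, with a median of 76.3% of values within 0.05 of a whole read and 37.1% in X28 replicate 2. Too few values came out whole for a count test.

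The values were returned to RPKM, 0.25 was added, and log2 was taken again. All 80 libraries entered 1 limma 3.58.1 model (R 4.3.3) with a term per group and an intensity trend, over 15396 genes with log2 RPKM above -1.5 in at least 1 library. P-values are two-sided and were adjusted by the Benjamini-Hochberg method over all genes tested in each comparison. There were 22 comparisons and the F test. The fit was checked on simulated data for X1 against S1 alone, and the F test was not simulated. Each replicate was a separate liver, and the highest correlation between livers of a group was 0.995. The members, lists, motifs and tests were chosen with earlier results of these data known. All 10 members are named, and for each list the gene with the largest called rise and fall in a comparison. Replicate numbers pair the livers only in S4 against S1, where each of 5 same-number pairs correlated above 0.1 (lowest 0.12) in their deviations from the group means, so values with the replicate number as a block are given there where they change a call. The fewest reads stood behind Ier3 and Klf4, about 11 and 17 in C0. Alternatives were other pseudocounts, filters, scaling, groups in the model, replicate blocks and sets, no fold threshold, and each library left out. RefSeq promoter sequences were matched by symbol.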

Additional observations from a re-analysis of the deposited data

Results flagged for a closer look

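A liver was marked where it stood apart from the rest of its group by Dixon's criterion, which chance meets in about 1 in 20 groups. Of 80 gene and group sets of 4 to 10 livers, 5 were marked. Ier2 was 23.9 RPKM in S1 replicate 4, above the other S1 livers. Zfp36 was 72.2 RPKM in X1 replicate 4, above the other X1 livers, and 21.7 RPKM in X10 replicate 6, below the other X10 livers. Klf2 was 4.44 RPKM in C0 replicate 8, above the other C0 livers, and 1.29 RPKM in X10 replicate 2, below the other X10 livers.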

How the results depend on the processing

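Of 220 member values, 80 were called, and 32 of these calls were lost without some library. Over 2080 values from the other alternatives, 1910 kept their side of the threshold, 118 lost the call and 51 gained it. In 1, a called value turned: Ier2 in X48 against C0 was 0.33 with replicates 4 to 6 alone. Changes of sign among values that were not called in the main fit were not counted. The numbers of members called that moved by over 1.5 times were as follows. With no filter on low values they were 2 in X1 against S1, 1 in X4 against S4, 1 in X10 against S10, 2 in X48 against S48, 0 in X1W against C0 and 0 in C4 against C0. With the compared groups alone in the model they were 1 in X1 against S1, 1 in X20 against S20, 3 in X28 against C4, 0 in X1W against C0 and 0 in C4 against C0. With a pseudocount of 1 they were 1 in X10 against S10, X20 against S20, S48 against C0 and C4 against C0. With scaled libraries they were 4 in S4 against C4, 7 in X72 against C0 and 1 in X1W against C0. With C0 replicates 7 to 9 alone 0 were called in C4 against C0. Replicates 1 to 3 alone gave 2 in X48 against S48, 3 in S1 against C0, 0 in S48 against C0 and 0 in X1W against C0, and replicates 4 to 6 alone gave 0 in X1 against S1, 1 in X4 against S4 and 4 in S1 against C0. The cause was not tested, other than that these subsets hold fewer livers.

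With the replicate number as a block, X1W against C0 gave 0 called members, as it did with the replicate set as a factor. Outside S4 against S1 the replicate numbers were not found to pair the livers, no label ties a number to a time period of the study, and the block gave 4 in X1 against S1, 4 in X4 against S4, 3 in X10 against S10, 2 in X20 against S20, 5 in X48 against S48 and 4 in S4 against S1. Subsets of replicates could not be fitted where a group had under 2 such libraries.

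With each library left out in turn, the number called was 2 to 4 in X1 against S1, 1 to 3 in X4 against S4, 1 to 3 in X10 against S10, 0 to 3 in X20 against S20, 2 to 4 in X48 against S48, 6 to 7 in S1 against C0, 2 to 5 in S4 against C4, 1 to 4 in S48 against C0, 8 in X1 against C0, 5 to 6 in X4 against C4, 2 to 7 in X28 against C4, 4 to 5 in X48 against C0, 4 to 5 in X72 against C0, 0 to 3 in X1W against C0, 0 in X4W against C4W, 0 to 3 in C4 against C0, 2 to 4 in X28 against X4, 3 to 4 in X44 against X20, 0 in X72 against X48, 4 to 5 in S4 against S1 and 4 to 7 in X4 against X1. The SE in X1 against C0 ran from 0.16 for Klf4 to 0.51 for Egr1. The mean of Klf4 in C0 (0.207 RPKM) was below the added 0.25, which narrows its spread on this scale. Its small SE therefore does not show a small error from few reads.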
